A study of Mus musculus with 8 samples.

Results

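Adipocyte nuclei of mouse gastrocnemius, a calf muscle, were described from single-nucleus RNA sequencing of 4 groups with 2 libraries each. A retained nucleus had more than 200 and fewer than 6000 genes detected and under 6% of its counts from mitochondrial genes. It was taken as an adipocyte nucleus when the raw unique molecular identifiers (UMIs, tags that let each captured RNA be counted once) of Adipoq, Plin1, Cidec and Pparg summed to at least 4, with at least 2 of these genes detected and at least 1 UMI of Adipoq or Plin1. This gave 1170 adipocyte nuclei among 64803 retained nuclei. All mice were wild-type C57BL/6. The Young group was 3 months old and the Old group 20 months old. The Running group was 11 months old when a treadmill programme of 2 months began, and the Sedentary group was its untrained control. No group carried a transgene, and the number of mice behind each library is not given in the sources used here, so p-values measure only the spread between these libraries, which may be technical. Each group had 1 library from the 10x Genomics platform (replicate 1) and 1 from a different droplet platform (replicate 2, here the second set).

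White adipocytes store triglyceride in a single large lipid droplet coated by perilipins, and release fatty acids from it when adrenergic signals raise cyclic AMP. Insulin opposes this release, promotes glucose entry and turns on the synthesis of new fatty acids from citrate and acetate. In skeletal muscle such cells lie between fibre bundles, and fibro-adipogenic progenitors (FAPs) are the resident cells known to give rise to them.

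The deposited libraries differed in size, with between 23390969 and 44454427 UMIs in the 10x set and between 4839878 and 9278034 in the second set. Among barcodes of retained 10x nuclei, 218 of 46840 occurred in more than 1 library, and 11 of the 1126 adipocyte barcodes were seen again in another library, none of them as an adipocyte nucleus. Levels below are CPM, the UMIs of a gene summed over the adipocyte nuclei of a library as a part of all such UMIs, leaving out mitochondrial and ribosomal protein genes. Where 1 library stands against 1 other, the 95% exact Poisson interval covers counting error only and no test was possible.

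Most adipocyte nuclei came from the 10x set. The Old library held 340, the Young library 210, the Running library 289 and the Sedentary library 287. In the second set the Old library held 34, the Young library 3, the Running library 3 and the Sedentary library 4. As shares of retained nuclei, the 10x libraries lay at 2.91% for Old (95% Wilson interval 2.62 to 3.23), 1.78% for Young (1.56 to 2.04), 2.22% for Running (1.98 to 2.49) and 2.71% for Sedentary (2.42 to 3.04). The second set gave 0.712% for Old (0.510 to 0.994), 0.0665% for Young (0.0226 to 0.195), 0.0710% for Running (0.0241 to 0.208) and 0.0945% for Sedentary (0.0367 to 0.243). The Old share exceeded the Young share in both sets, 1.63-fold in the 10x set and 10.7-fold in the second set. The 10x gap was narrower, 1.88% (220 nuclei) against 1.59% (187 nuclei), without nuclei that also met another cell class's marker rule, described below. The Running share was 0.821 times the Sedentary share in the 10x set and 0.751 times in the second set. An exact two-sided permutation test of the log2 share over both sets gave p = 0.667 for each comparison, but with 2 libraries against 2 the smallest p possible is 0.333, and the spread it uses includes the gap between the sets, so it could not pass. With the threshold raised to 6 UMIs the mean log2 ratio of Running to Sedentary was 0.75 in place of -0.35, which rests on 3 against 1 nuclei in the second set; in the 10x set Running (2.16%, 281 nuclei) stayed below Sedentary (2.30%, 243 nuclei).

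**Figure D1:**
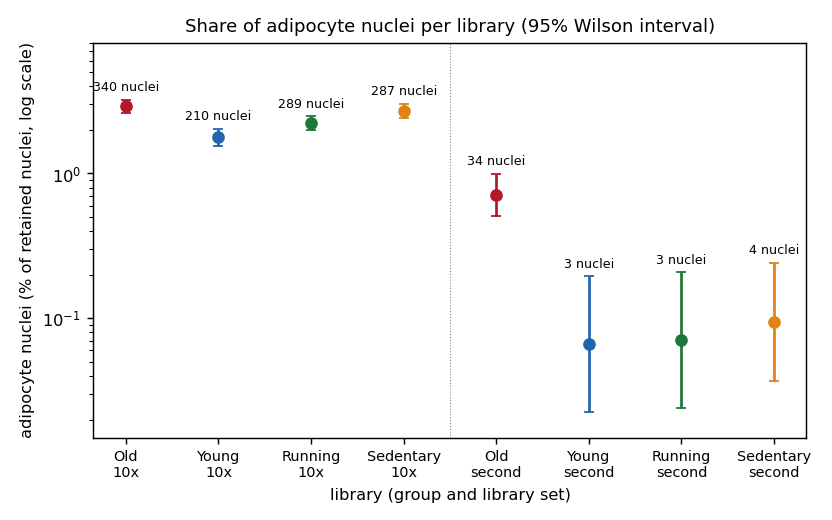
Share of adipocyte nuclei among retained nuclei in each of the 8 libraries (y axis, percent, log scale), with 95% Wilson intervals and the number of nuclei above each point. The 4 libraries of the 10x set lie between 1.78% and 2.91%, and 3 of the 4 of the second set lie below 0.1%, with Old at 0.712%.

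Adipocyte nuclei were deeper than the nuclei around them in the 10x set. Their median UMI count was 4895 (Old), 5555 (Young), 4924 (Running) and 3028 (Sedentary), against 2750, 2979, 2761 and 1637 in other nuclei. With a rule on raw counts a deeper nucleus passes more easily. In the second set the Old adipocyte nuclei held a median of 1058 UMIs against 940 in other nuclei. Just inside the threshold, with exactly 4 UMIs, lay 13 Old, 3 Young, 4 Running and 25 Sedentary nuclei and 9 in the second Old library. Just outside it, with 3 UMIs and otherwise meeting the rule, lay 17, 5, 4, 26 and 23 nuclei in the same order. The median sum of the 4 genes was 23 UMIs for Old, 29 for Young, 24 for Running, 13 for Sedentary and 7 in the second Old library.

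The nuclei were chosen by the measured UMIs of 4 genes, which are described here without a test. Adipoq encodes adiponectin, Plin1 the main coat protein of the adipocyte lipid droplet, Cidec a protein of droplet fusion, and Pparg the nuclear receptor that directs adipocyte formation. All 4 were detected in 68.5% of the Old, 70.5% of the Young, 66.8% of the Running and 39.7% of the Sedentary 10x nuclei. Plin1 stood at 1212 CPM (Old), 1117 (Young), 1367 (Running) and 736 (Sedentary), against 2.09 to 10.3 in other nuclei of the same libraries. Between 64.1% and 94.8% of all UMIs of each of these genes in a 10x library lay in adipocyte nuclei. In the second Old library only between 9.38% (Adipoq) and 25% (Plin1) did, and there 17.0% of the other nuclei carried a Pparg UMI and 6.80% a Cidec UMI. There, 1 of the 34 nuclei held all 4 genes.

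Markers of myofibres and FAPs were present in these nuclei at lower levels than around them. The 10 myofibre markers summed to between 1654 and 2590 CPM of all counts in the 10x adipocyte nuclei, against 13086 to 15702 in other nuclei. In the second set the same sum was 11651 against 21032 (Old), 21390 against 42358 (Young), 33066 against 38387 (Running) and 21564 against 32016 (Sedentary). All adipocyte nuclei of the second set met the myofibre marker rule, at least 4 UMIs with at least 2 markers detected. So did 97.8% to 100% of its other nuclei. In the 10x set between 46.7% and 85.8% of adipocyte nuclei met it, against 78.9% to 94.6% of other nuclei. The 10 FAP markers summed to 857 for Old, 424 for Young, 474 for Running and 307 for Sedentary adipocyte nuclei, against 901 to 3681 in other nuclei. The 5 Schwann cell markers were higher in adipocyte nuclei than in other nuclei of all 4 10x libraries, at a summed 130 against 91.6 CPM (Old), 66.9 against 35.7 (Young), 123 against 38.4 (Running) and 145 against 64.2 (Sedentary), with most of the UMIs from Mbp. In Sedentary the lymphatic endothelial, T cell and B cell sums were also higher, at 77.0, 55.2 and 45.4 against 48.6, 36.1 and 28.4. Leaving the myofibre list aside, 120 Old nuclei (35.3%) also met the marker rule of another cell class, mostly that of FAPs (110 nuclei), against 23 in Young (10.95%), 29 in Running (10.0%) and 24 in Sedentary (8.36%). Their part in the results was not tested beyond giving the values without such nuclei.

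With the 4 rule genes counted, 683 of 10241 measured genes (6.67%) were at least 2-fold above other nuclei in all 4 10x libraries. This contrast is that of the rule and is a description. Among the genes with the highest smallest ratio, Lep, the hormone leptin, stood between 51.9-fold and 407-fold above other nuclei. Pck1, which makes glycerol phosphate for triglyceride in fat, ranged from 56.0-fold to 283-fold. Trarg1, a partner of the insulin-regulated glucose transporter, ranged from 50.3-fold to 292-fold. Prkar2b, a regulatory subunit of protein kinase A, ranged from 48.2-fold to 208-fold, and Lgals12, a lectin of the lipid droplet, from 46.1-fold to 357-fold. The beta-3 adrenergic receptor gene Adrb3 ranged from 41.6-fold to 479-fold. In each of these the smallest ratio was that of the Sedentary library, whose other nuclei also carried the highest levels of the rule genes Plin1, Cidec and Pparg in the 10x set.

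The gene lists used from here on were chosen with earlier results of these data known, so their shares are descriptions. By role, genes of the lipid droplet coat and of lipolysis were at least 2-fold above other nuclei in all 4 10x libraries for 9 of 12 measured, against 6.67% of all genes. Plin4 stood at 3038 CPM (Old), 1025 (Young), 715 (Running) and 1665 (Sedentary). Lipe, the hormone-sensitive lipase, stood at 916, 709, 855 and 985, and Pnpla2, the adipose triglyceride lipase, at 234, 265, 173 and 116 in the same order. Of fatty acid uptake genes 7 of 11 were above by this measure, among them Fabp4, a fatty acid carrier, with 2905 CPM for Old, 973 for Young, 1655 for Running and 2095 for Sedentary. The lipoprotein lipase gene Lpl stood at 1555, 883, 1129 and 1032, and at 2961 in the second Old library. Of the adrenergic and natriuretic control genes 8 of 11 were above, of insulin and glucose handling genes 8 of 14, of adipokines and other secreted factors 6 of 10, of adipogenic transcription factors 6 of 13, of adipocyte matrix genes 5 of 14, and of triglyceride assembly genes 4 of 11. FAP nuclei were other nuclei with at least 4 UMIs over Pdgfra, Dcn, Abca8a and Col1a2 and at least 2 of these detected. Against them the matrix list was lower, with a median log2 ratio of -0.68, against 1.37 to all other nuclei. The remaining lists of this paragraph had medians between 0.96 and 4.07 against FAP nuclei. Ghr, the growth hormone receptor, placed in the matrix list with Igf1, stood at 9155, 14518, 14240 and 11907 CPM, against 1463 to 2731 in other nuclei.

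Of 14 genes of brown and beige fat 8 were measured, and 2 of these, Prdm16 and Kcnk3, were at least 2-fold above other nuclei in all 4 10x libraries, against 6.67% of all genes. Ucp1, the uncoupling protein that defines brown fat, had 1 UMI each in the Old and Sedentary 10x adipocyte nuclei and 0 in Young and Running, and Elovl3 had 0 in all 4. Prdm16, a regulator of brown fat identity, stood at 136, 76.8, 152 and 74.3 CPM in Old, Young, Running and Sedentary, and the potassium channel gene Kcnk3 at 13.98, 34.8, 36.6 and 23.8. The 2 below by this measure were Cpt1b and Esrrg, where 492 of all 10241 measured genes were below. The median log2 ratio of this list was -0.69 to all other nuclei and 0.34 to FAP nuclei. None of 6 measured inflammation and stress genes was 2-fold above, and 8 more, Tnf, Il6 and Ccl2 among them, had under 50 UMIs over the 4 libraries and were not measured. Of 16 measured glycolysis genes none was above and 5 were below by 2-fold in all 4 libraries (Gpi1, Pfkm, Aldoa, Pkm and Slc16a3). Of all 10241 measured genes 492 were below. The median log2 ratio of the glycolysis list was -0.82 to all other nuclei and -0.17 to FAP nuclei. Ldha, the lactate dehydrogenase subunit that the study followed, stood at 62.1 CPM in Old (95% interval 51.1 to 74.8), 113 in Young (95.3 to 134), 97.6 in Running (83.1 to 114) and 49.5 in Sedentary (36.8 to 65.3), against 84.7 to 214 in other nuclei. Its edgeR quasi-likelihood differences did not pass the threshold (Old against Young log2 fold change -0.72, SE 0.78, and Running against Sedentary 0.81, SE 0.86, Benjamini-Hochberg adjusted p = 0.99971 and 0.99996).

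**Figure D2:**
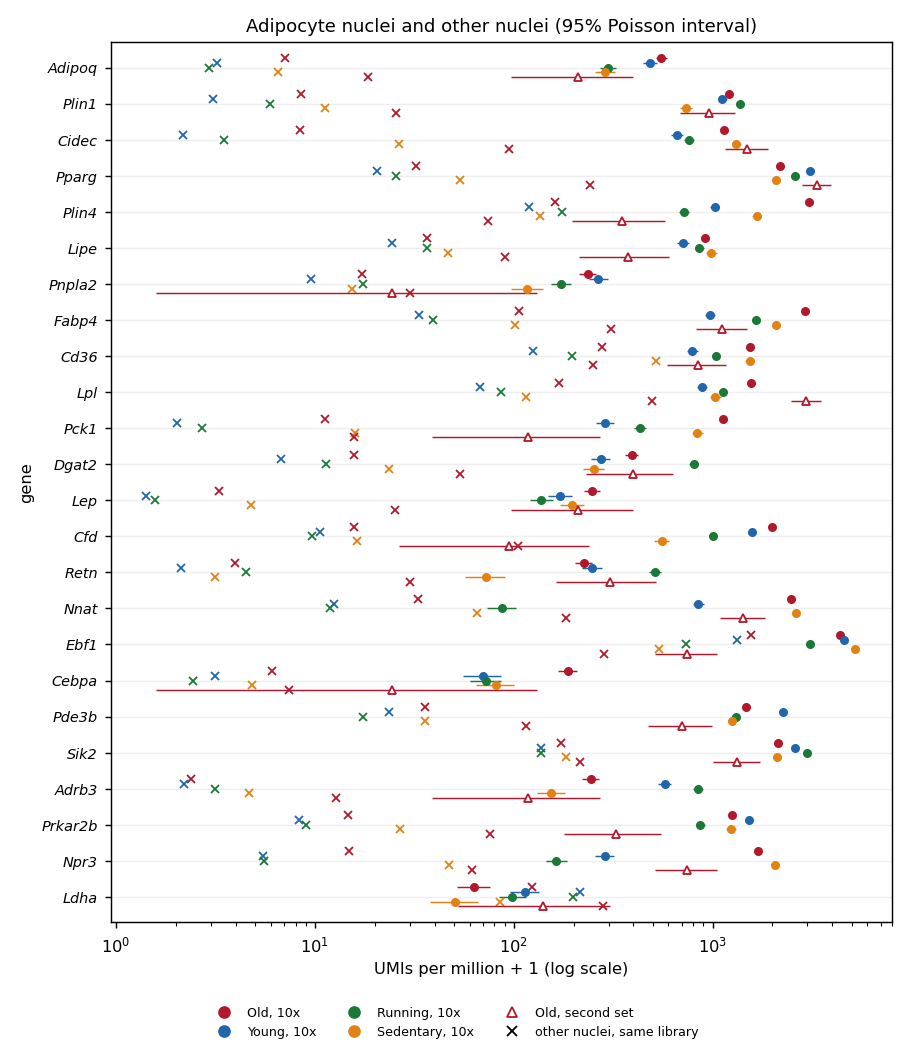
Levels of 24 genes in adipocyte nuclei (circles, 10x libraries; triangles, second Old library; bars, 95% Poisson interval) and in other nuclei of the same library (crosses), as CPM plus 1 on a log scale. Circles lie right of the crosses of the same colour in all genes but Ldha, where they lie left of them.

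Running against Sedentary asks whether treadmill exercise changed the muscle. In adipocyte nuclei, genes of de novo fatty acid synthesis were much higher in the Running 10x library. Of 14 measured, 13 were at least 2-fold higher in Running, none was lower, and the median log2 difference was 3.45, against 0.13 over all 7483 genes measured, of which 6.78% were at least 2-fold higher. Of 1190 genes that adipocyte nuclei of the 10x set carry at least 2-fold above other nuclei, 15.1% were higher by this measure. These outnumber the 683 genes above in all 10x libraries, so a gene could enter without being above in each. The Running and Sedentary libraries took part in choosing them, which can raise this share, so it is a description. In the other nuclei of the same 2 libraries the median difference of the 14 genes was 0.30. As the list was chosen with earlier results of these data known, its share beside that of all genes is no test of enrichment.

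Fasn encodes fatty acid synthase, which builds palmitate (chr11:120805846-120824547, minus strand, GRCm38). Its adipocyte level was 1151 CPM in Running (95% interval 1099 to 1204, 1886 UMIs), 15.8 in Sedentary (9.06 to 25.7, 16 UMIs), 29.1 in Old (52 UMIs) and 67.9 in Young (84 UMIs). The Running value was 72.6 times the Sedentary value, and the 2 intervals do not overlap. The 3 libraries with the fewest adipocyte nuclei held 0 UMIs in Young, 2 in Running and 1 in Sedentary, too few to compare, and its Old library held 7 UMIs, or 163 CPM (65.6 to 336).

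Acly, which cleaves citrate to acetyl-CoA, stood at 1019 CPM in Running, 24.8 in Sedentary, 31.3 in Old and 72.8 in Young. Acss2, which makes acetyl-CoA from acetate, stood at 2692 in Running, 68.3 in Sedentary, 100 in Old and 160 in Young. Acaca, the carboxylase that makes malonyl-CoA, stood at 10064 in Running, 644 in Sedentary, 697 in Old and 2278 in Young. Running was the highest of the 4 10x libraries in each of these genes, and Young was the next. Me1, which supplies NADPH, stood at 1994, 140, 204 and 316 in the same order of libraries. Elovl6, an elongase of palmitate, stood at 1188, 40.6, 32.4 and 48.5, and Thrsp, a factor tied to lipogenesis, at 814, 43.6, 66.0 and 88.2. The desaturase gene Scd1 was the exception of the list, with 1756 in Running, 1120 in Sedentary, 1002 in Old and 319 in Young. Of the regulators, Mlxipl, encoding ChREBP, was 3.27-fold and Srebf1 4.63-fold higher in Running than in Sedentary.

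The second Old library did not follow the 10x Old library in these genes. Its 34 nuclei held Me1 at 1609 CPM (69 UMIs), Acss2 at 839 (36 UMIs) and Elovl6 at 303 (13 UMIs). Each lies above the level of the 10x Old library, where they stood at 204, 100 and 32.4. Other nuclei of the second Old library carried Me1, Acss2 and Elovl6 at 240, 141 and 65.7 CPM, also above other nuclei of the 10x Old library (83.6, 125 and 17.4).

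**Figure D3:**
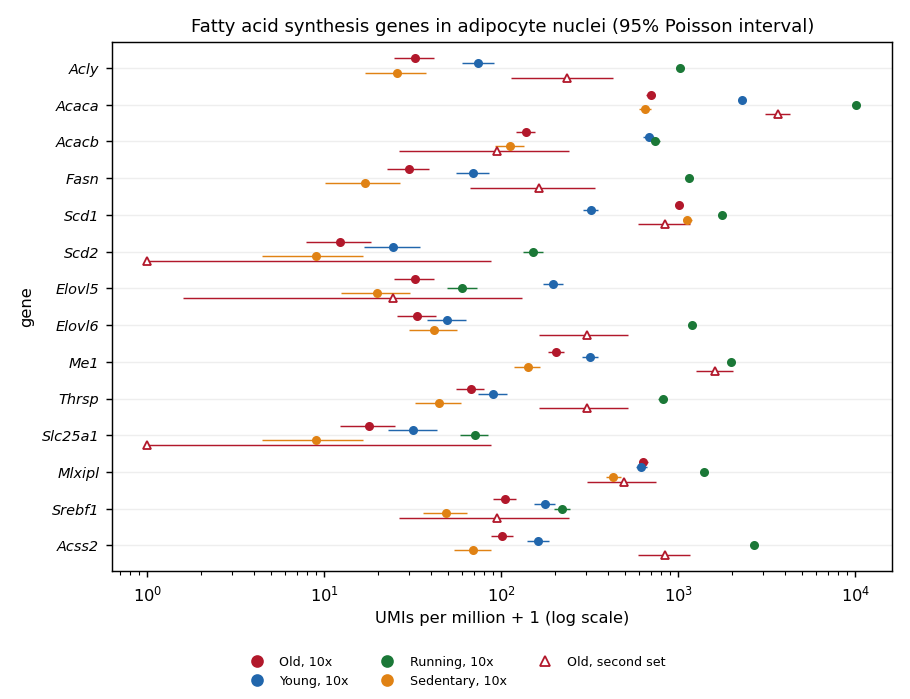
Levels of the 14 fatty acid synthesis genes in adipocyte nuclei of the 4 10x libraries (circles) and of the second Old library (triangles), as CPM plus 1 on a log scale with 95% Poisson intervals. The Running circle is the rightmost circle in all genes but Elovl5, where Young is.

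Most Running adipocyte nuclei held more of these UMIs than nearly all Sedentary ones. With each nucleus thinned to 1000 UMIs, the 14 genes gave a median of 21 UMIs in 287 Running adipocyte nuclei (quartiles 12 and 33.5), 2 in 279 Sedentary (1 and 4), 3 in 334 Old (1 and 4) and 5 in 210 Young (3 and 7). At least 10 such UMIs were found in 235 of 287 Running nuclei (81.9%), 2 of 279 Sedentary (0.717%), 5 of 334 Old (1.497%) and 21 of 210 Young (10.0%). Of 1000 other nuclei drawn from the Running library, 0.1% reached 10, and of 1000 from each of the other 10x libraries 0% did. A total of 2 Running, 8 Sedentary, 6 Old and 0 Young adipocyte nuclei were too shallow for thinning. Before thinning, Fasn was detected in 91.3% of Running and 4.88% of Sedentary adipocyte nuclei, and after it in 65.2% and 1.43%, against 0.7% and 0.1% of other nuclei after thinning.

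**Figure D4:**
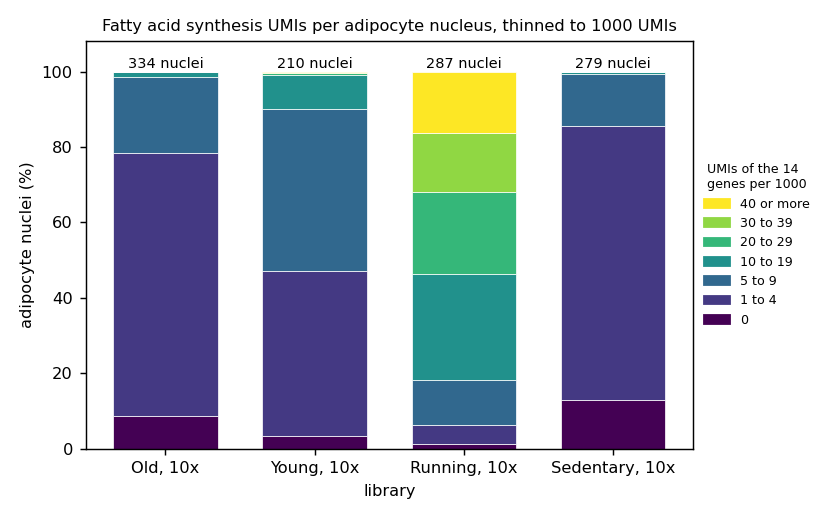
Percent of adipocyte nuclei (y axis) by the number of UMIs of the 14 fatty acid synthesis genes after thinning to 1000 UMIs per nucleus (colours), in the 4 10x libraries. In Running 81.9% of nuclei hold 10 or more, and in Sedentary 0.717% do.

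The sequences upstream of these genes are shown because the genes were high together in 1 library. RefSeq (GRCm38.p6) gave a start site for 12 of the 14. In the 250 bases before a start, on either strand, the letters CCAAT, the box bound by NF-Y, occurred for 9 of 12 genes and for 37.5% of 27025 genes with such a window. CACGTG, an E-box, occurred for 3 of 12 (6.86% of all), GGGTCA for 4 of 12 (13.1% of all) and a 10-letter sterol regulatory element for 0 of 12 (0.0814% of all). These are counts of letters, and genes with several start sites count when any window holds them. The windows of 3 genes are given 5′ to 3′ on the strand of the gene, with CCAAT or its reverse complement in capitals. Fasn (chr11:120824548-120824797, minus strand) holds 3 matches, of which the last pair overlaps by 2 bases. Acss2 (chr2:155517793-155518042, plus strand) holds 1, and Elovl6 (chr3:129532136-129532385, plus strand) holds 0.
Fasn: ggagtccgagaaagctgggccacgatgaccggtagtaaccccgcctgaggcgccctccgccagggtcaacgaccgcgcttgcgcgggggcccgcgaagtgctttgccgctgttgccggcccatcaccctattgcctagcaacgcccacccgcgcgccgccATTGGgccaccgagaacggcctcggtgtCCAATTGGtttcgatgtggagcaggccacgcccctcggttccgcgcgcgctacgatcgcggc
Acss2: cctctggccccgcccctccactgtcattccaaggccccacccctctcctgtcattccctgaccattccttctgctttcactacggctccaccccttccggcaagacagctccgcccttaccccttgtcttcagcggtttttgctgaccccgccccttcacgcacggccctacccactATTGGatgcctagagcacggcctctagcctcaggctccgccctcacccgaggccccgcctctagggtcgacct
Elovl6: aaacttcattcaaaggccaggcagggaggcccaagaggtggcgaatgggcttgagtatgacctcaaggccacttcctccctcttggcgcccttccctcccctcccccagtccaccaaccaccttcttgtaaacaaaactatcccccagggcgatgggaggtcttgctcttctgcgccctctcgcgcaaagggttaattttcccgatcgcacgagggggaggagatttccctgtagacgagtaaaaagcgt

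Some genes of neighbouring steps of lipid storage were also higher in Running, by smaller amounts. Of 10 measured triglyceride assembly genes 4 were at least 2-fold higher and none lower, against 6.78% of all genes and 15.1% of the genes above other nuclei, with a median log2 difference of 0.69 against 0.13 over all genes. Among them Dgat2, an enzyme of the last step of triglyceride synthesis, stood at 804 CPM in Running, 252 in Sedentary, 392 in Old and 273 in Young. Agpat2, an acyltransferase, stood at 317, 63.4, 91.7 and 89.8 in the same order. Pnpla3, a lipogenic lipase, was 10.5-fold higher in Running, at 2206 against 210, and other nuclei of these libraries also differed (54.7 against 9.98). Angptl8, an insulin-responsive secreted inhibitor of lipoprotein lipase, had 171 UMIs in Running and 0 in Sedentary, at least 35.1-fold higher by a floor of 3 UMIs in the Sedentary library. Pgm3, of hexosamine synthesis, stood at 465 against 21.8. H2-Q10 stood at 161 against 5.94, but its reads may be split with near-identical histocompatibility genes.

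Among hormone signals, Adrb3 stood at 844 CPM in Running, 154 in Sedentary, 243 in Old and 575 in Young. The resistin gene Retn stood at 514, 71.3, 224 and 247. Both were high in Running and low in Sedentary, with the other libraries between. Of 12 measured glycolysis genes 4 were at least 2-fold higher in Running (Hk2, Pkm, Eno1 and Aldoa) and none lower, against 6.78% of all genes. Their list's median log2 difference was 0.86, and in other nuclei 0.39. Hk2, which phosphorylates glucose, stood at 461 against 143, while Aldoa was also higher in the other nuclei, by 1.21 on the log2 scale. Of the lactylation enzymes measured, Acss2 was the only one of 12 at least 2-fold higher.

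Genes lower in Running made up 7.50% of the 7483. Nnat, the imprinted gene of neuronatin, stood at 86.0 CPM in Running, 2624 in Sedentary, 2484 in Old and 848 in Young. Npr3, the clearance receptor of natriuretic peptides, stood at 163, 2063, 1693 and 286. In other nuclei Nnat and Npr3 were lower in Running too, by log2 differences of -1.83 and -1.94, where they were detected at far lower levels. The calcium channel gene Cacna1e stood at 2.44 in Running, 415 in Sedentary, 235 in Old and 11.3 in Young. Dock8, a guanine nucleotide exchange factor, stood at 10.4, 567, 274 and 4.04. Both were thus high in Sedentary and Old and low in Running and Young. Nnat, Cacna1e and Dock8 were among the 10 lowest by rank, and Npr3 was not. The other 7 were Gm10800, Gm10801, Gm21738, Gm10719, Gm10718, Gm11168 and Gm10717, near-identical predicted genes whose reads cannot be assigned with certainty. Gm10800 stood at 250 against 15058 in adipocyte nuclei and at 241 against 3992 in other nuclei, so it was higher in Sedentary in both.

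Old against Young asks what age changed. In the 10x adipocyte nuclei 622 of 7835 measured genes (7.94%) were at least 2-fold higher in Old and 197 (2.51%) lower. With TMM scaling, which shifts all log2 differences by 0.15, the share of higher genes among those past 2-fold was 62.6% in place of 75.9%. Of the lists, adipokines and secreted factors had 3 of 9 higher (Itih5, Nnat and Rarres2) and 0 lower, with a median log2 difference of 0.37 against 0.03 over all genes. Fatty acid synthesis had 1 of 13 higher (Scd1) and 4 lower (Elovl5, Acacb, Acaca and Acly), with a median of -0.63. In the fit over all 8 libraries, described below, the direction of that list turned, with a median log2 fold change of 0.57 against 0.22 over all genes, 9 of 14 positive and none called. Of the adrenergic and natriuretic control genes 1 of 11 was higher (the natriuretic receptor gene Npr3) and 3 lower (the adrenergic receptor gene Adrb3, Acvr1c and Hcar1). The median was -0.48. Of triglyceride assembly genes 1 of 10 was higher (Pck1) and 1 lower (Gpd1), and of insulin and glucose handling genes 1 of 14 was higher and 2 lower (Pik3r1 and Tbc1d4).

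Storage and secretion genes give the values behind these counts. G0s2, an inhibitor of the triglyceride lipase, stood at 526 CPM in Old and 163 in Young, and Abhd5, the activator of that lipase, at 87.2 and 483. The pair thus differed in opposite directions, 3.23-fold higher and 5.53-fold lower in Old. Abhd5 was chosen after its values were seen. Neither gene was called in the edgeR fit over all 8 libraries, described below (adjusted p = 0.689 for G0s2 and 0.755 for Abhd5). Pck1 stood at 1133 against 288 and Cebpa, a transcription factor of fat formation, at 186 against 68.8. Igf1 stood at 469 against 1599 and Pik3r1, a regulatory subunit of phosphoinositide 3-kinase, at 702 against 2967. In the second Old library Pck1 stood at 117, Cebpa at 23.3 (1 UMI) and Pik3r1 at 653.

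Most of the genes with the highest rank in Old had few UMIs in the Young nuclei. Akr1cl, an aldo-keto reductase (chr1:65012689-65032759, minus strand, GRCm38), had 443 UMIs in Old and 1 in Young, a ratio of 306 with a counting interval of 55.0 to 12098. Dock8 had 490 and 5 UMIs, Vgll3, a cofactor of TEAD factors, 392 and 7, and Cacna1e 421 and 14. Ptchd4 had 280 and 3 UMIs, a ratio of 64.5 (22.1 to 313), and the imprinted gene Mest 174 and 3, a ratio of 40.1 (13.7 to 194). The aggrecanase gene Adamts5 had 1538 and 115. Xkr4 and Nedd9 had 350 and 724 UMIs in Old against 12 and 48 in Young. In the other nuclei of these libraries the log2 differences of these 9 genes lay between -0.17 (Ptchd4) and 0.66 (Adamts5). Without the nuclei that also met another class's rule, the adipocyte differences lay between 3.12 (Mest) and 4.64 (Dock8).

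Of 1206 genes that adipocyte nuclei of the 10x set carry at least 2-fold above other nuclei, 13.8% were higher in Old and 9.62% lower. These outnumber the 683 genes above in all 10x libraries, so a gene could enter without being above in each. The Old and Young libraries took part in choosing them, which can raise both shares. The shares are therefore descriptions. Several of the 10 lowest by rank encode interferon-induced GTPases. Iigp1 had 29 UMIs in Old and 435 in Young, Gbp6 30 and 171, Gbp10 5 and 87, and the related Gm4951 34 and 308. These families hold close copies, so their reads may be split. Sema3a, a guidance factor, had 91 and 586 UMIs and was also lower in other nuclei (log2 difference -1.80). Cish, a target of growth hormone and STAT5 signalling, had 49 and 231 UMIs, a log2 difference of -2.40, and was lower in other nuclei too (-2.25). Hs3st3b1, Zyg11a, Clstn2 and the noncoding Gm48832 complete the 10, with log2 differences between -3.39 (Hs3st3b1) and -2.34 (Clstn2).

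**Figure D5:**
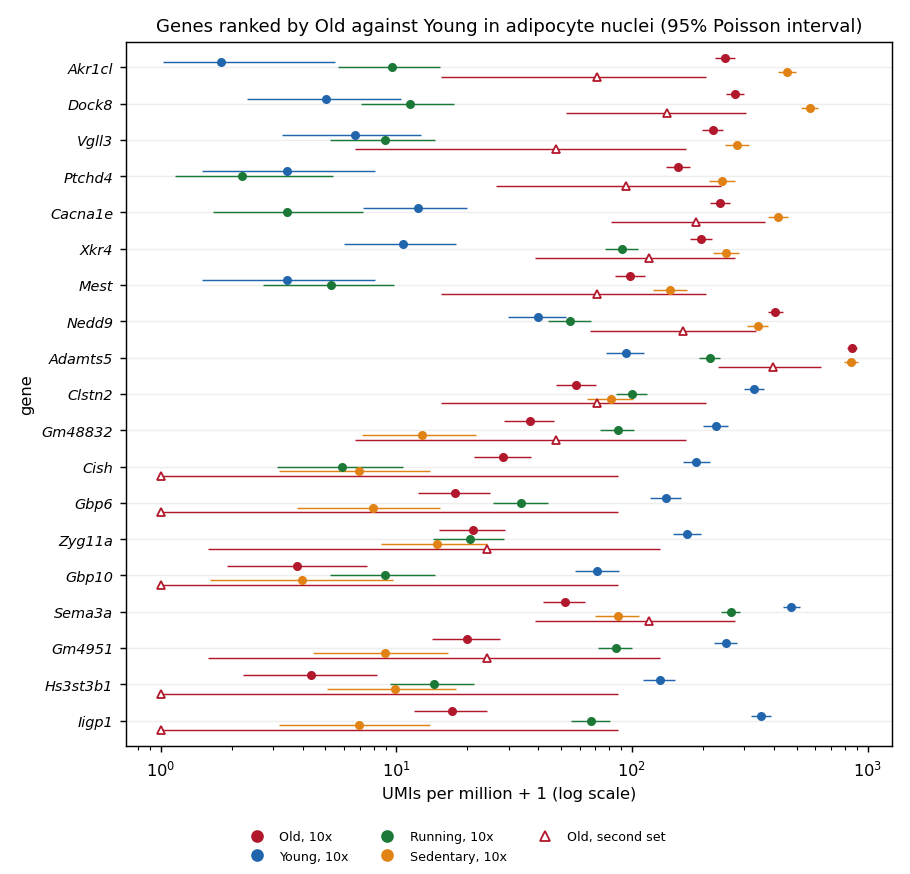
Levels in adipocyte nuclei of 9 of the highest and the 10 lowest genes by Old against Young in the 10x set, for all 4 10x libraries (circles) and the second Old library (triangles), as CPM plus 1 on a log scale with 95% Poisson intervals. In the upper 9 genes Old and Sedentary lie right of Young and Running, and in the lower 10 Young is the rightmost circle.

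The comparisons share no library, and their genes overlapped in opposite directions. Of 7050 genes measured in both, 534 were at least 2-fold higher in Old and 415 lower in Running, and 236 were both, which is 44.2% of the first and 56.9% of the second, where 5.89% of all these genes were lower in Running. Higher in Old and higher in Running were 27 genes, 5.06% of the first. Lower in Old and higher in Running were 48 of 171 genes (28.1%), where 6.11% of all were higher in Running. All 9 genes named above as highest in Old were at least 2-fold lower in Running than in Sedentary, from -1.39 (Xkr4) to -5.09 (Cacna1e) on the log2 scale. The Old and Sedentary 10x adipocyte nuclei thus shared high levels of these genes. The second Old library held them too, at low counts: Dock8 6 UMIs (140 CPM), Cacna1e 8 (187), Ptchd4 4 (93.3), Akr1cl 3 (69.9) and Mest 3 (69.9). In its other nuclei Dock8 stood at 82.3, Cacna1e at 130 and Ptchd4 at 80.9 CPM, higher than in other nuclei of any 10x library. Other nuclei of the 10x libraries also differed in some myofibre markers. Myh7 stood at 131 CPM in Old and 263 in Sedentary, against 1.20 in Young and 4.52 in Running. Tnnt1 stood at 37.2 and 83.5 against 0.806 and 1.75, while Myh1 and Mybpc1 did not split this way. Whether this bears on the adipocyte levels was not tested.

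A fit over all 8 libraries (edgeR quasi-likelihood test, library set as a term, 8737 genes, Benjamini-Hochberg adjustment) called 10 genes for Old against Young (0.114% of those tested), 9 higher (0.103%) and 1 lower (0.0114%). Among them were Akr1cl, Dock8, Ptchd4, Vgll3, Cacna1e, Mest, Gm36827 and Nrg3, higher, and Iigp1, lower. Akr1cl had a log2 fold change of 8.15 (SE 1.46, adjusted p = 0.000200), and Dock8 one of 6.36 (SE 1.23, adjusted p = 0.00115). For Running against Sedentary 188 genes were called (2.15%), 14 higher and 174 lower (1.99%). Of the 14 fatty acid synthesis genes 7 were called higher (Fasn, Acly, Elovl6, Thrsp, Acss2, Me1 and Scd2), where 0.160% of all genes were, and none lower. That list was chosen with earlier results of these data known, so this share is a description. Fasn had a log2 fold change of 5.22 (SE 1.05, adjusted p = 0.000598). Acaca, with 2.53 (SE 0.95, adjusted p = 0.161), and Nnat, with -2.15 (SE 0.97, adjusted p = 0.362), were not called. Among those called lower were Cacna1e, Ptchd4, Dock8, Akr1cl, Vgll3, Mest, Npr3, Thbs1 and Sfrp5.

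These calls rest on 1 well-filled library per group, and the edgeR method was chosen after the older method's calls (1 and 220) had been seen. DESeq2 on the same counts called 0 genes for Old against Young (195 at an unadjusted p under 0.05, against 500 with edgeR) and 2 for Running against Sedentary (Cacna1e and Gm10800), and the edgeR fit called 0 in both without the library set term (307 and 462 at an unadjusted p under 0.05). Fits without any one of the 4 10x libraries left 1 library in a group and tested only 2623 to 2659 genes, against 8737. Their counts are therefore not comparable with those above. In these fits the log2 fold changes of some called genes turned, as listed in the closing section.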

How the data were processed

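Single-nucleus libraries of mouse gastrocnemius were analysed from the count matrices that the authors deposited, which hold whole UMI counts per gene and nucleus with no normalization. The submitters' processing notes name Cell Ranger 6.1.2 and Seurat 4.1.1 and the mm10 build. The file headers of the second set name PISA, and its nuclei carry running numbers in place of barcodes. The members and gene lists were chosen with earlier results of these data known. Counts were summed over adipocyte nuclei per library, and differences within the 10x set used log2(CPM + 10). A gene was measured in a comparison with at least 50 UMIs over both libraries. Doublets were kept, since Scrublet called none in several libraries. In the 10x set it called 33 of 340 Old, 19 of 210 Young, 16 of 289 Running and 0 of 287 Sedentary adipocyte nuclei. Of all retained nuclei it called 5.05%, 2.62%, 3.11% and 0% in the same order. Genes were named as rule genes, as list members (values for up to 6 per list by highest mean level), as up to 20 leading genes, as the 10 highest and 10 lowest per comparison among genes at least 2-fold above other nuclei, as edgeR calls, and Ldha, with 1 gene not reported here; other list genes with values (such as Pnpla2, Cebpa, Abhd5 and Agpat2) were chosen after their values were seen. Summed counts were tested with edgeR 4.0.16 (quasi-likelihood, TMM, group and library set, 3 residual degrees of freedom), with DESeq2 1.42.0 as an alternative. The older edgeR quasi-likelihood method was run first, and its calls on the real data had been seen. On simulated data for Old against Young (8737 genes) it called 314 of 8537 unchanged genes, so the newer method replaced it. The newer method called 0 of these, and recovered 45% of 100 genes changed 16-fold and 1% of 100 changed 4-fold. The simulation gave every gene the same spread (common dispersion 0.247) and no library set effect. It therefore cannot show which method suits the real data, where the older one called fewer genes for Old against Young (1 against 10). Coordinates are from GENCODE on GRCm38.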

Additional observations from a re-analysis of the deposited data

How the results depend on the processing

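The mean log2 ratio of the Old to the Young share kept its direction under every alternative run. Leaving out an Old or Young library removed its whole set, which gave the ratio of the other set alone, 0.71 (10x) or 3.42 (second). Leaving out a Running or Sedentary library could not change it. Without nuclei meeting another class that mean was 1.79, with 1.88% in Old against 1.59% in Young in the 10x set. For Running to Sedentary the values with a single library left out were likewise those of 1 set alone, -0.29 (10x) and -0.41 (second). This mean log2 ratio was -0.0333 at 3 UMIs, -0.0893 without Pparg in the rule and -0.0495 at 2 UMIs after thinning. It turned to 0.75 at 6 UMIs and 0.25 at 2 UMIs without thinning. Against 10 (Old against Young) and 188 (Running against Sedentary) genes called, the counts were 0 and 2 with DESeq2, 3 and 106 without a filter, 1 and 67 at 6 UMIs, 13 and 123 without the highest doublet scores, 23 and 183 without nuclei meeting another class, and 1 and 220 with the older edgeR method. The older method was run first, and the newer one, which gives the 10 and 188, was chosen after those calls had been seen. Without the library set term edgeR called 0 and 0 (307 and 462 at an unadjusted p under 0.05), and with only libraries of at least 20 adipocyte nuclei and no such term 0 and 0 (382 and 667). Leaving out single libraries gave 0 to 12 and 0 to 433 calls. The count was 0 in both comparisons without any one 10x library, 4 and 45 without Old replicate 2, 85 for Running without Running replicate 2 and 433 without Sedentary replicate 2. Without a 10x library its group holds only 3 or 4 nuclei (34 in Old), assumed to vary like the other groups. Log2 fold changes then turned for Iigp1 without Young replicate 1 (6.35), for Acss2 (-3.32), Me1 (-10.15), Acly (-8.33), Elovl6 (-9.23) and Thrsp (-8.61) without Running replicate 1, and for Akr1cl (3.83), Dock8 (4.89), Cacna1e (3.51), Gm21738 (3.54) and Gm10719 (3.60) without Sedentary replicate 1. Over all single-library omissions the log2 fold changes ranged, by gene, as Iigp1 -9.03 to 6.35, Acly -8.33 to 11.43, Acss2 -3.32 to 4.80, Akr1cl -8.52 to 3.83, Cacna1e -9.59 to 3.51, Dock8 -9.43 to 4.89, Elovl6 -9.23 to 11.82, Gm10719 -7.94 to 3.60, Gm21738 -7.93 to 3.54, Me1 -10.15 to 4.01 and Thrsp -8.61 to 11.05. The cause of these changes was not tested. No paired analysis was possible because the labels give no replicate numbers, and those used here follow accession order; the library set served as the block.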
